A study of Mus with 4 samples.

Results

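Genes of the hypoxia response and of glycolysis were examined in mouse tumors that grew from Renca cells. The set was a list of 31 gene symbols, of which the array's annotation named 29 among its 19505 named genes. Gpi1 and Eno1 were left out because the annotation lacks them, and Ero1l is listed under its present symbol Ero1a. The 29 genes comprise Hif1a, 18 glycolysis genes (13 enzymes and 5 genes of transport and regulation) and 10 other targets of the hypoxia-inducible factor (HIF). The rule for the list uses no measured value, but the members were chosen with earlier results of these data known.

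Renca is an established line from a renal adenocarcinoma of BALB/c mice. The cells stably expressed either shNrf3, a short hairpin RNA directed at Nrf3, or a control one, shCtrl, and were placed under the skin of male BALB/cCrSlc mice, bought at 4 to 6 weeks of age. The hosts had received normal chow (NC, CE-2) or a high-fat diet (HFD, HFD-60) for 17 weeks, and tumors were taken 2 weeks after injection. Each of the 4 combinations of hairpin and diet, written as shCtrl-NC and so on, has 1 Affymetrix array, and the labels do not state how many tumors an array represents, whether shNrf3 cells are 1 clone, or which hairpin sequence was used. With 1 array a group, no difference between 2 arrays can be set against a spread between tumors. In whole tumor RNA, fewer cells of a type and less RNA per cell cannot be told apart.

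HIF is a pair of proteins, an oxygen-regulated alpha subunit such as HIF-1 alpha and a stable beta subunit, ARNT. When oxygen is present, prolyl hydroxylases of the EGLN family mark the alpha subunit for destruction through VHL, so HIF-1 alpha is controlled largely at the protein level and its mRNA does not report its activity. When oxygen is scarce, HIF raises glucose uptake, glycolytic enzymes and lactate export, and also genes for pH control, vessel growth, mitophagy and collagen modification. Loss of VHL and constant HIF activity are well known from human clear cell renal carcinoma.

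Values are log2 RMA signals, so a difference of 1 is 2-fold, and members are counted as higher or lower at 1.5-fold or more (0.585 on the log2 scale). Where values are given in the group order, NC comes before HFD and, within each diet, shCtrl before shNrf3. Levels of different genes are not compared, since each probe set has its own response. Negative control rows had medians of 5.35 to 5.39 and 95th percentiles of 8.97 to 9.35. All 29 members passed a filter on level (a mean over the 4 arrays of at least 5.73, which is the median of the whole table), and 24 read above the 95th percentile on all 4 arrays. Car9, Pfkfb4, Ankrd37 and Eno2 read below it on all 4 arrays and Slc16a3 on 1, so that their values are the least certain. Over the 10021 genes past the filter the median difference was 0.14 for construct in NC, -0.14 for construct in HFD, 0.26 for diet with shCtrl and -0.03 for diet with shNrf3, and member differences are to be read against these shifts. Nfe2l3, which encodes NRF3 and is the target of the hairpin, read 6.22 on the shCtrl-NC array and 5.56 on the shNrf3-NC array, but 5.77 and 6.05 on those labelled shCtrl-HFD and shNrf3-HFD. It thus went against the label in HFD at levels close to the negative controls, and every construct direction below rests on the labels of the arrays. Of 11 markers of epithelium and renal tubule, Krt8, Krt18, Krt19, Cdh1, Epcam and Cldn4 lay above the negative control median on every array, while the renal genes Pax2, Pax8, Lrp2 and Cdh16 and the claudin gene Cldn7 lay below it on every array.

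**Figure D1:**
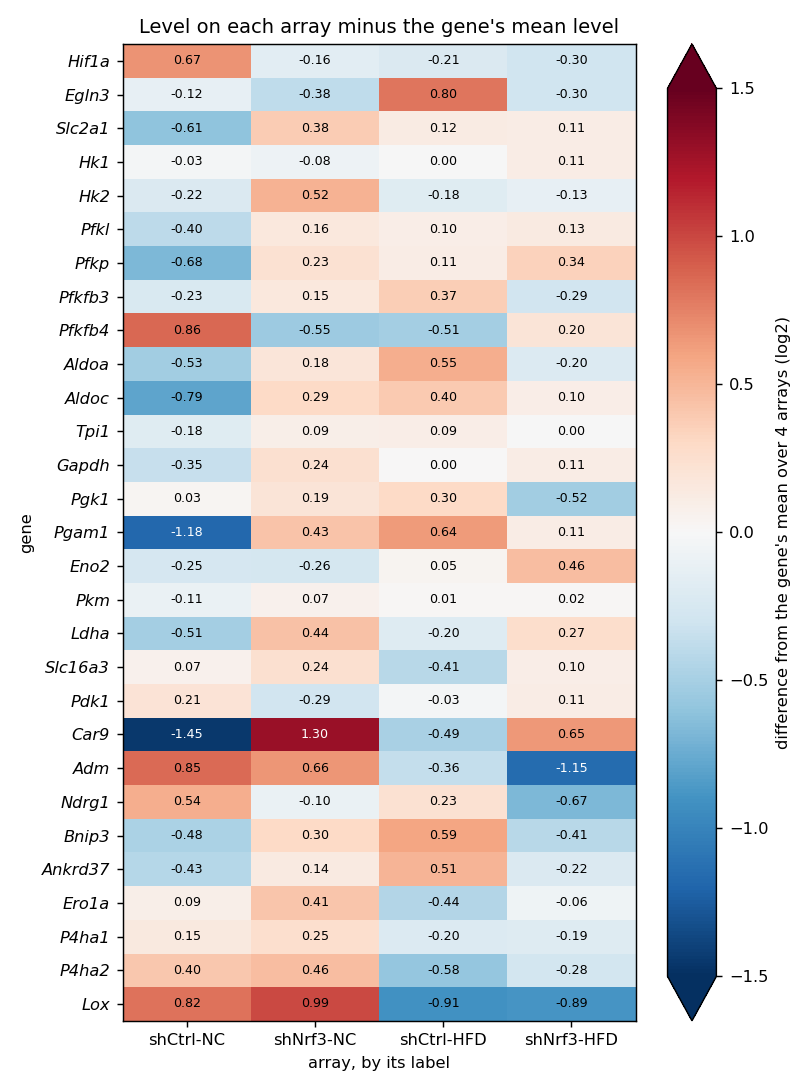
Each cell gives a member's level on 1 array minus its mean over the 4 arrays (log2), with red above and blue below the mean. Hif1a and Egln3 head the rows, glycolysis genes follow and the remaining HIF targets close the list: Lox, Adm and P4ha2 are above their means on both NC arrays and below them on both HFD arrays, and 11 of the 18 glycolysis genes are lowest on the shCtrl-NC array (6 after cyclic loess).

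The sharpest pattern by diet lay in the HIF targets outside glycolysis. Lox, Adm and P4ha2 were 1.5-fold or more lower in HFD than in NC with both constructs, 3 of 10 such targets and none of the 18 glycolysis genes. Among all genes past the filter 2.12% were lower with both constructs. None of the 29 members was 1.5-fold or more higher in HFD with both constructs, where 2.75% of all genes were.

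Lox (Entrez 16948) encodes lysyl oxidase, the secreted enzyme that starts the cross-linking of collagen and elastin. It read 13.14 on the shCtrl-NC array, 13.32 on shNrf3-NC, 11.42 on shCtrl-HFD and 11.44 on shNrf3-HFD. Both HFD arrays were low and nearly equal, and both NC arrays were high. Lox was thus 3.31-fold lower in HFD with shCtrl (-1.73) and 3.67-fold lower with shNrf3 (-1.88), while by construct it differed by 0.17 in NC and 0.02 in HFD.

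Adm (Entrez 11535) encodes adrenomedullin, a peptide that widens vessels and supports vessel growth. Its levels were 12.96 and 12.76 on the shCtrl and shNrf3 arrays of NC, and 11.75 and 10.96 on those of HFD. Both HFD arrays lay below both NC arrays, as for 10.4% of all genes past the filter. The differences were -1.21 for shCtrl and -1.81 for shNrf3 (2.31-fold and 3.50-fold lower). Within HFD the array labelled shNrf3 was also lower, by -0.79, and within NC it differed by -0.19.

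Besides Lox, the members P4ha1 and P4ha2 act on collagen and Ero1a on protein folding, and all 3 read lower on both HFD arrays than on both NC arrays. P4ha2 (Entrez 18452), a catalytic subunit of collagen prolyl 4-hydroxylase, read 10.49 and 10.55 in NC and 9.52 and 9.82 in HFD, with differences of -0.98 with shCtrl and -0.74 with shNrf3. P4ha1, the other catalytic subunit measured, had the same order at a smaller size, 13.93 and 14.03 in NC against 13.59 on each HFD array. Ero1a, an oxidase that helps form disulfide bonds in the endoplasmic reticulum, read 14.44 and 14.76 in NC and 13.92 and 14.29 in HFD. The differences of P4ha1 (-0.34 and -0.44) and Ero1a (-0.52 and -0.47) stayed within 1.5-fold.

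Counted over both sets, 5 of the 10 other HIF targets (Adm, P4ha1, P4ha2, Lox and Ero1a) and Hif1a had both HFD arrays below both NC arrays, as had 10.4% of all genes past the filter. None of the 18 glycolysis genes did. After cyclic loess between arrays these 5 targets and Hif1a kept that order, and 4 glycolysis genes (Hk2, Tpi1, Pkm and Slc16a3) had it too, against 14.6% of all genes. With each array centred on its median over the genes past the filter, the 5 targets and Hif1a again had that order and 2 glycolysis genes did (Hk2 and Slc16a3), against 14.1%. In the opposite order, with both HFD arrays above both NC arrays, were Hk1 and Eno2, against 20.2% of all genes.

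**Figure D2:**
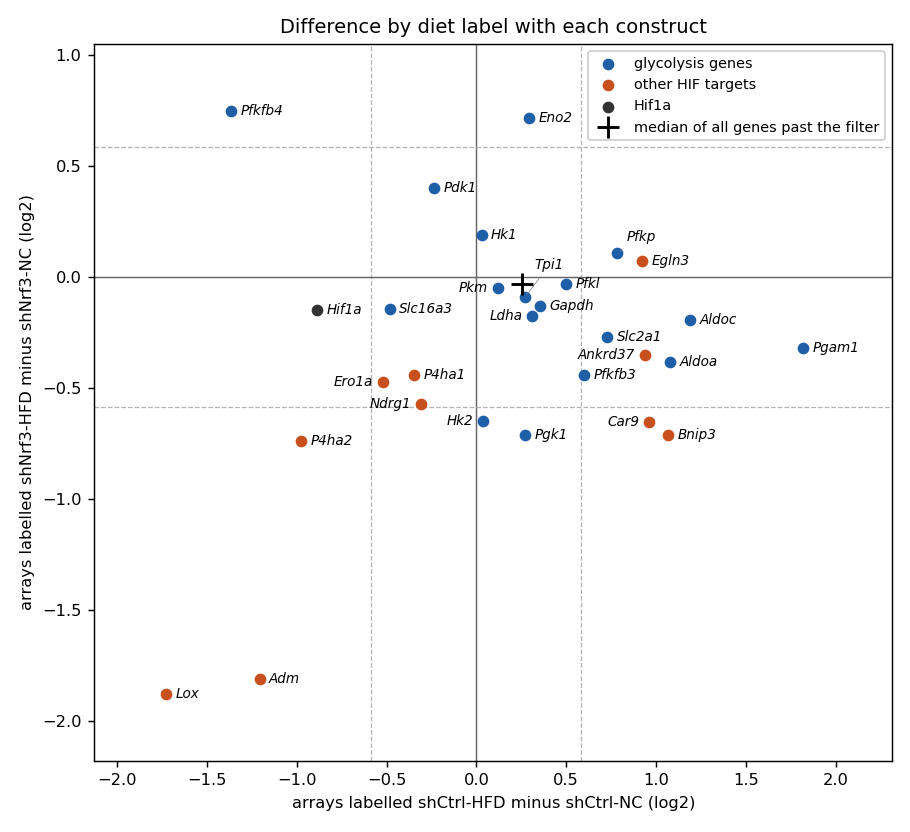
Each point is a member, with the HFD minus NC difference with shCtrl on the x axis and with shNrf3 on the y axis (log2). Dashed lines mark 1.5-fold, the cross marks the median of all genes past the filter (0.26 and -0.03), and Lox and Adm stand apart at the lower left with P4ha2 beyond both lower lines.

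The median over the 10 other HIF targets was -0.33 with shCtrl and -0.61 with shNrf3, below the shifts of all genes of 0.26 and -0.03. With shCtrl 4 were 1.5-fold or more higher in HFD and 3 lower, where 31.2% and 10.7% of all genes were. With shNrf3 none was higher and 5 were lower, where 8.84% and 14.4% were. The 2 diet comparisons have no array in common with each other.

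Markers of fibroblasts and pericytes moved with diet as well. Of 11 measured, 6 were 1.5-fold or more lower in HFD with shCtrl and 8 with shNrf3, and their mean level was 11.91 on shCtrl-NC, 11.10 on shNrf3-NC, 11.31 on shCtrl-HFD and 9.93 on shNrf3-HFD. Of these, Cspg4 read below the negative control median on 3 arrays and the other 10 on none. These markers also differed by construct in HFD (median -1.53, 8 of 11 lower), where Lox and P4ha2 differed by 0.02 and 0.30, and in NC (median -0.79, 6 of 11 lower), where they differed by 0.17 and 0.06. Of all genes past the filter 10.7% were lower by diet with shCtrl and 14.4% with shNrf3. By construct 13.5% were lower in NC and 20.8% in HFD. The part of fibroblasts in the diet differences of Lox and the P4ha genes was not tested. Endothelial markers, 10 measured, had diet medians of -0.24 and -0.06, with 4 and none lower. Their mean level was 7.76, 6.76, 7.40 and 6.70 in the group order, and 1 to 3 of them read below the negative control median. Their part in the difference of Adm was not tested.

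By construct, 1 member was higher and 1 lower by 1.5-fold or more in both diets, both of them HIF targets outside glycolysis. Of all genes past the filter 3.06% were higher in both diets and 3.71% lower, so counts of 1 in 29 lie near that background.

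The member higher in both was Car9 (Entrez 230099), the membrane-bound carbonic anhydrase IX, which helps cells rid themselves of acid and is widely used as a marker of hypoxia. It read 6.07 on shCtrl-NC and 8.82 on shNrf3-NC, and 7.04 on shCtrl-HFD and 8.17 on shNrf3-HFD. Both arrays labelled shNrf3 lay above both labelled shCtrl, as for 16.4% of all genes past the filter. The differences were 2.75 in NC and 1.14 in HFD. None of the 4 readings reached the 95th percentile of its array's negative controls, and the shCtrl-NC reading lies close to their median. By diet it had no common direction (0.96 with shCtrl and -0.65 with shNrf3). Car12, a related membrane-bound carbonic anhydrase listed among further HIF targets, was also higher in both, by 0.89 in NC and 0.67 in HFD. Its levels were 8.21, 9.10, 8.88 and 9.55 in the group order. Both shCtrl readings of Car12 lay below the 95th percentile of their arrays' negative controls (9.35 in NC and 8.97 in HFD).

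The member lower in both was Ndrg1 (Entrez 17988), a stress-responsive gene linked to differentiation and the restraint of metastasis. Its levels were 16.34 and 15.70 in NC and 16.03 and 15.13 in HFD, shCtrl first. The array labelled shNrf3 was the lower one in each diet, by -0.64 in NC and -0.90 in HFD. With each array centred on its transcript median the NC difference was -0.54, short of 1.5-fold.

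Egln3 encodes PHD3, a HIF prolyl hydroxylase that HIF itself induces. It read 14.08 on shCtrl-NC, 13.82 on shNrf3-NC, 15.00 on shCtrl-HFD and 13.90 on shNrf3-HFD. The shCtrl-HFD array alone stood high, which gave a construct difference of -1.10 in HFD against -0.26 in NC. Together with Ndrg1 it had both shNrf3 arrays below both shCtrl arrays, 2 of 29 members against 18.9% of all genes past the filter.

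On the deposited scale Pfkfb4, Aldoa and Bnip3 passed 1.5-fold in opposite directions in the 2 diets, 3 of 29 members where 6.51% of all genes did. Bnip3, a mitochondrial protein that promotes mitophagy, is the HIF target outside glycolysis among them. It read 11.04 on shCtrl-NC, 11.82 on shNrf3-NC, 12.11 on shCtrl-HFD and 11.11 on shNrf3-HFD, which is 0.78 higher for shNrf3 in NC and lower in HFD (-1.0). Ankrd37, a small HIF target with ankyrin repeats, had the same order of arrays at low levels (7.15, 7.71, 8.09 and 7.36), with differences of 0.57 and -0.73. For both genes the shCtrl-NC array was lowest and the shCtrl-HFD array highest. After cyclic loess the NC differences of Aldoa (0.37) and Bnip3 (0.55) fell short of 1.5-fold. With arrays centred on the genes past the filter they did so too (0.50 and 0.57), as did the HFD difference of Aldoa (-0.54). Only Pfkfb4, low on all 4 arrays, stayed past 1.5-fold in both diets.

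**Figure D3:**
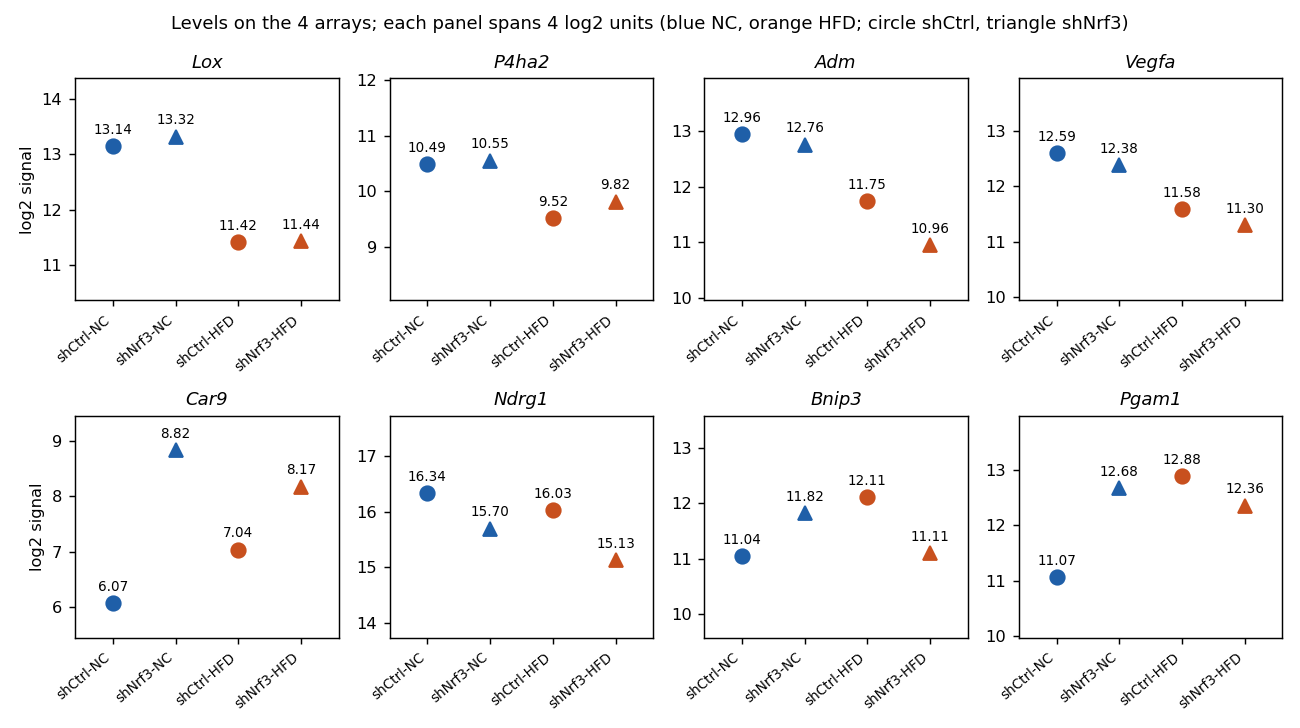
Log2 levels of 8 genes on the 4 arrays, with blue for NC, orange for HFD, circles for shCtrl and triangles for shNrf3; each panel spans the same number of log2 units but has its own range. Lox, P4ha2, Adm and Vegfa are lower on both HFD arrays, Car9 is higher and Ndrg1 lower on the shNrf3 array of each diet, Bnip3 crosses over between diets, and Pgam1 is low on the shCtrl-NC array alone.

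Endothelial markers and some epithelial markers also differed by construct. Of the 10 endothelial markers 7 were 1.5-fold or more lower with shNrf3 in NC (median -1.26) and 4 in HFD (median -0.43), with none higher, and Cdh5, Kdr and Flt1 were lower in both diets. Of the 11 markers of epithelium and renal tubule, Krt18 was lower by -0.71 in NC and -0.69 in HFD, Cdh1 by -0.64 and -0.80, and Cldn4 by -0.91 and -0.76. Their part in the construct differences of Ndrg1, Egln3 and Bnip3 was not tested.

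Over the 10 other HIF targets the median construct difference was 0.14 in NC and -0.36 in HFD, and the NC value turned to -0.10 after cyclic loess. In NC 2 were 1.5-fold or more higher and 1 lower, where 26.8% and 13.5% of all genes were. In HFD 1 was higher and 5 were lower, where 9.12% and 20.8% were. The 5 lower in HFD were Adm, Bnip3, Ndrg1, Egln3 and Ankrd37. Centred on the median of the genes past the filter, 3 of these 5 stayed beyond 1.5-fold (Bnip3, Ndrg1 and Egln3), where 12.4% of all genes were lower.

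Hif1a itself was highest on the array of the control hairpin in chow. It read 16.23 on shCtrl-NC, 15.40 on shNrf3-NC, 15.34 on shCtrl-HFD and 15.26 on shNrf3-HFD. The shCtrl-NC array stood above the other 3, which differed among themselves by little. This gave differences of -0.83 for construct in NC and -0.89 for diet with shCtrl, which share that array, against -0.09 for construct in HFD and -0.15 for diet with shNrf3. After cyclic loess the 2 larger differences were -1.14 and -1.26.

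Of the 18 glycolysis genes, 8 were 1.5-fold or more higher on the array labelled shNrf3 in NC, where 26.8% of all genes were, and 1 was lower, where 13.5% were. The other 9 did not pass 1.5-fold, and 4 of the 18 (Hk1, Pfkfb4, Eno2 and Pdk1) were below 0. Their median was 0.47 against 0.14 for all genes. In HFD 1 was higher and 3 were lower, where 9.12% and 20.8% of all genes were, and the median was 0.04 against -0.14. After cyclic loess the NC count was 5 higher and 2 lower (median 0.21 against 0.02), where 22.3% and 17.4% of all genes were. The 13 enzymes had an NC median of 0.59, with 7 higher and none lower (26.8% and 13.5% of all genes), and an HFD median of 0.03, with none higher and 2 lower (9.12% and 20.8%). After cyclic loess 4 of the 13 were higher in NC and none lower, with a median of 0.29.

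**Figure D4:**
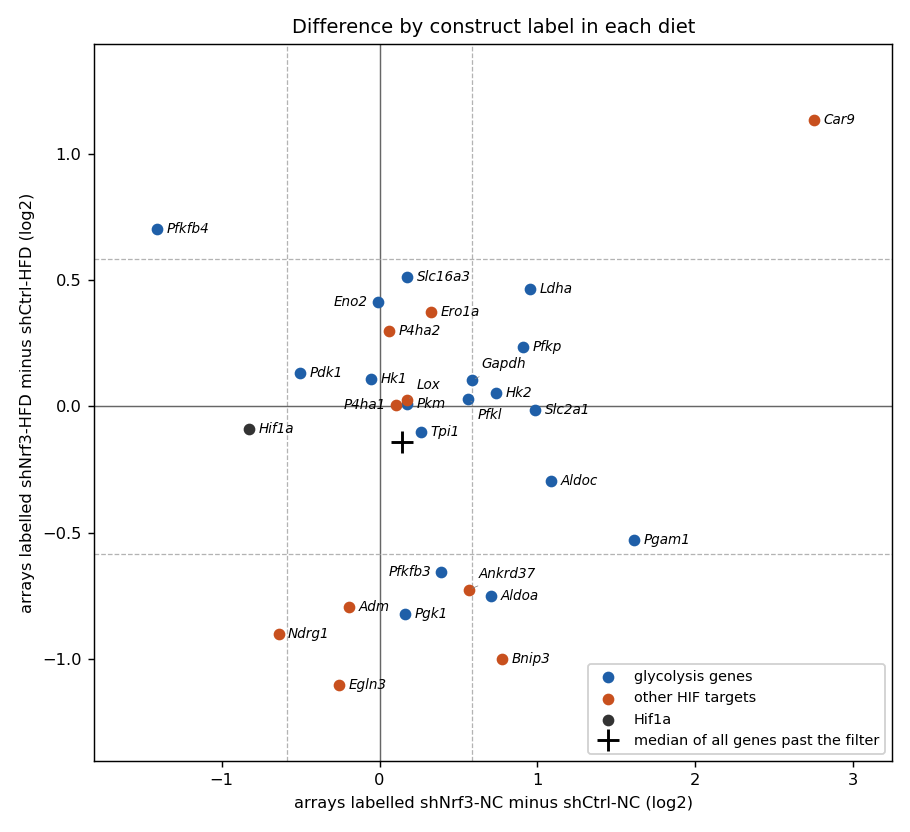
Each point is a member, with the shNrf3 minus shCtrl difference in NC on the x axis and in HFD on the y axis (log2). Dashed lines mark 1.5-fold and the cross the median of all genes past the filter (0.14 and -0.14); 8 of the 18 glycolysis genes lie past the right-hand line (5 after cyclic loess), Car9 lies at the upper right and Ndrg1 at the lower left.

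On the deposited scale the shCtrl-NC array held the lowest level of 11 of the 18 glycolysis genes, and of 41.6% of all genes past the filter. For some of these, such as Hk2, Tpi1 and Pkm, it lay little below the next array. After cyclic loess it held the lowest of 6, against 32.6% of all genes, and with arrays centred on the genes past the filter of 7, against 29%. The construct difference in NC and the diet difference with shCtrl both use this array and are not independent of each other.

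In the first steps of the pathway, Hk1 and Hk2 encode hexokinases, which trap glucose in the cell. Hk1 hardly varied, at 13.33, 13.28, 13.36 and 13.47 in the group order. Hk2, the form that HIF and growth signals induce, read 12.12 on shNrf3-NC and 11.38, 11.42 and 11.47 on shCtrl-NC, shCtrl-HFD and shNrf3-HFD. The shNrf3-NC array alone stood high for Hk2, by 0.74 over its control.

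Phosphofructokinase commits sugar to glycolysis, and Pfkl and Pfkp encode its liver and platelet forms. Pfkl read 12.55 on shCtrl-NC and 13.11, 13.05 and 13.08 on the other 3 arrays. Pfkp read 11.69 on shCtrl-NC and 12.60, 12.47 and 12.70 on the other 3. Both were thus low on shCtrl-NC and level elsewhere, with NC construct differences of 0.56 and 0.91.

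Among the enzymes that split and rearrange the sugar, Aldoa and Aldoc (aldolases A and C) differed by 0.71 and 1.09 by construct in NC. Aldoa read 16.88, 17.59, 17.96 and 17.21 in the group order, and its HFD difference had the opposite sign, -0.75. Aldoc read 10.46, 11.55, 11.65 and 11.35. Tpi1, triosephosphate isomerase, varied by only 0.27 over the arrays, from 15.36 on shCtrl-NC to 15.63 on shCtrl-HFD.

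The largest glycolytic difference belonged to Pgam1 (Entrez 18648), phosphoglycerate mutase, in the lower part of the pathway. It read 11.07 on shCtrl-NC, 12.68 on shNrf3-NC, 12.88 on shCtrl-HFD and 12.36 on shNrf3-HFD. The shCtrl-NC array was 3.05-fold below shNrf3-NC (1.61) and 3.52-fold below shCtrl-HFD (1.82), while in HFD the construct difference was -0.53.

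Gapdh and Pgk1 encode the enzymes before it, the second of which makes ATP. Gapdh read 19.01, 19.60, 19.36 and 19.47 in the group order, near the highest value of the table, 19.93. Pgk1 went its own way, at 15.68, 15.84 and 15.95 on the first 3 arrays and 15.13 on shNrf3-HFD, which lies -0.82 below its control. Several of these genes, Gapdh and Pgk1 among them, have processed pseudogenes close in sequence, so their probe sets are uncertain.

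At the end of the pathway, Pkm (pyruvate kinase M) varied least of all enzymes, from 18.24 to 18.42. Ldha, the lactate dehydrogenase subunit that favours lactate, read 17.65 and 17.97 on the shCtrl arrays of NC and HFD and 18.61 and 18.43 on the shNrf3 arrays. Its shNrf3 level was the higher one in both diets, by 0.95 and 0.47, with the second short of 1.5-fold. Eno2, the neuronal enolase, read between 5.62 and 6.34, close to the negative controls.

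With these values 7 of the 18 glycolysis genes (Hk2, Pfkl, Pfkp, Gapdh, Pkm, Ldha and Slc16a3) had both shNrf3 arrays above both shCtrl arrays, where 16.4% of all genes past the filter did. After cyclic loess it was 5 (Slc2a1, Pfkl, Pfkp, Gapdh and Ldha) against 18.2%. Pfkl, Pfkp, Gapdh and Ldha were in this order in both and also with arrays centred on the genes past the filter, where 19.3% of all genes were. For these 4 the construct difference in HFD ran from 0.03 for Pfkl to 0.47 for Ldha on the deposited scale.

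Glucose entry and lactate exit were covered by Slc2a1, the glucose transporter GLUT1, and Slc16a3, the lactate exporter MCT4. Slc2a1 read 14.48 on shCtrl-NC and 15.46, 15.21 and 15.19 on the other 3 arrays, again low on shCtrl-NC alone. Slc16a3 stayed between 8.87 and 9.53, near the 95th percentile of the negative controls.

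Of the regulators, Pfkfb3 and Pfkfb4 make fructose 2,6-bisphosphate, an activator of phosphofructokinase, and Pdk1 holds pyruvate back from the mitochondria by inhibiting pyruvate dehydrogenase. Pfkfb4 ran against the enzymes, at 7.75 on shCtrl-NC, 6.34 on shNrf3-NC, 6.39 on shCtrl-HFD and 7.09 on shNrf3-HFD, with construct differences of -1.41 in NC and 0.70 in HFD. Pfkfb3 read 10.37, 10.76, 10.97 and 10.31, with a construct difference of -0.66 in HFD. Pdk1 read 11.75, 11.24, 11.51 and 11.64 and stayed within 1.5-fold in all 4 comparisons, as did 8 members in all.

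By diet the glycolysis genes followed the shift of all genes. With shCtrl 6 were 1.5-fold or more higher in HFD and 1 lower, where 31.2% and 10.7% of all genes were, and their median of 0.30 lay beside 0.26 for all genes. After cyclic loess their median was -0.05, with 3 higher and 2 lower, where 21.3% and 16.6% of all genes were. With shNrf3 their median was -0.14 against -0.03, with 2 higher and 2 lower, where 8.84% and 14.4% were. All 13 enzymes were above 0 with shCtrl, by 0.03 for Hk1 to 1.82 for Pgam1, on a scale where 66.2% of all genes were above 0, and the median of the enzymes after cyclic loess was -0.03.

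Skeletal muscle and macrophage markers moved with the NC construct difference of the enzymes. Of 20 muscle markers 16 were 1.5-fold or more higher on shNrf3-NC than on shCtrl-NC and none was lower. Their mean level was 5.83 on shCtrl-NC, 8.26 on shNrf3-NC, 5.96 on shCtrl-HFD and 5.55 on shNrf3-HFD, with 10, 1, 8 and 12 of them below the negative control median. Acta1, skeletal muscle actin, read 12.51 on shNrf3-NC and 4.73 to 6.48 on the other 3 arrays. The list holds glycolytic isoforms of muscle. Eno3, muscle enolase, differed by 1.65 in NC and Pfkm, muscle phosphofructokinase, by 1.85, whereas Pgam2, muscle phosphoglycerate mutase, read below the negative control median on all 4 arrays. Macrophage and monocyte markers, 11 measured and all above that median, had mean levels of 10.67, 11.94, 11.21 and 11.64, with 10 higher in NC and 5 higher and 1 lower in HFD. Adipocyte markers, 12 measured, had mean levels of 8.11, 9.63, 9.07 and 7.91, and 2 to 4 of them read below that median. Of these 12, 10 were higher on shNrf3-NC and 9 on shCtrl-HFD than on shCtrl-NC. In HFD none was higher and 9 were lower with shNrf3. Beside these muscle, macrophage and adipocyte counts by construct, 26.8% of all genes past the filter were higher and 13.5% lower in NC. In HFD 9.12% were higher and 20.8% lower. Neutrophil markers, 6 measured, had mean levels of 8.72, 9.63, 10.25 and 10.10, also lowest on shCtrl-NC. Keratinocyte, erythroid and T cell markers had mean levels between 4.60 and 6.68. By construct 4 of 8 T cell markers were higher and none lower in NC, and 1 was higher and 2 lower in HFD. By diet with shNrf3 all 8 were lower, where 14.4% of all genes were. Of 10 keratinocyte markers 7 were lower and none higher by construct in NC, and 6 were lower and 1 higher in HFD. On an array up to 9 keratinocyte and 6 T cell markers read below the negative control median. The low shCtrl-NC readings of Pgam1, Aldoc, Pfkp and Slc2a1 also stood against shCtrl-HFD (1.82, 1.19, 0.78 and 0.73). After cyclic loess these differences were 1.47, 0.87, 0.43 and 0.36. Between the same 2 arrays 6 of the 20 muscle markers were 1.5-fold or more higher on shCtrl-HFD and 5 lower. Of all genes past the filter 31.2% were higher and 10.7% lower there. The part of muscle, macrophages, adipocytes, neutrophils, keratinocytes and T cells in the readings was not tested.

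Further genes of the pathways were counted the same way. Of 34 measured genes in a list of other glycolysis genes, 10 were higher and 5 lower by 1.5-fold or more in NC, and 3 higher and 6 lower in HFD, with medians of 0.26 and -0.08. These counts include genes that read below the negative control median on all 4 arrays, such as Slc2a4, Hkdc1, Pgk2, Pklr and Ldhb. With readings floored at that median, 8 were higher and 2 lower in NC, and 2 higher and 2 lower in HFD, with medians of 0.02 and 0.03. One of them, Pfkm, was 1.5-fold or more higher in both diets (1.85 and 0.69), and none was lower in both. Of 34 measured genes in the list of further HIF targets, 9 were higher and 3 lower in NC, and 5 higher and 7 lower in HFD, with medians of 0.25 and -0.03. Among the genes counted, Ppp1r3c and Ppfia4 read below the negative control median on all 4 arrays. With the same floor, NC had 7 higher and 3 lower and HFD had 5 higher and 5 lower (medians 0.07 and 0.03). Set beside both lists, all genes past the filter had NC shares of 26.8% (higher) and 13.5% (lower). Their HFD shares were 9.12% and 20.8%.

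Of these further targets, Car12, Hmox1 and Selenbp1 were higher and Ccng2 and Pdgfb lower in both diets by 1.5-fold or more. Among all genes past the filter 3.06% were higher and 3.71% lower in both diets. Heme oxygenase 1 (Hmox1), which breaks down heme and is also a target of NRF2, was higher with shNrf3 by 1.38 in NC and 1.30 in HFD, with levels of 13.46, 14.84, 12.84 and 14.14 in the group order. Selenbp1, at 5.38 to 6.37 close to the negative controls, was higher by 0.62 and 0.99, the first 0.42 with arrays centred on the genes past the filter. Ccng2, a cyclin linked to growth arrest, was lower by -0.61 and -0.98. Pdgfb, a growth factor that draws pericytes to vessels, was lower by -1.46 in NC and by -2.47 or lower in HFD, where the shNrf3 array read below the negative control median. The part of the endothelial markers, also lower with shNrf3, in the difference of Pdgfb was not tested.

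By diet, 4 of the further HIF targets were lower in HFD with both constructs, beside the 3 members named above. Among all genes past the filter 2.12% were. Vegfa, the main growth factor for vessels, read 12.59 and 12.38 in NC and 11.58 and 11.30 in HFD, shCtrl first. Its differences of -1.01 and -1.08 were alike for both constructs. Both HFD arrays lay below both NC arrays, as for 10.4% of all genes past the filter. Higd1a, a mitochondrial protein of the hypoxia response, differed by -0.96 and -1.13, Hmox1 by -0.63 and -0.70, and Plod2, a lysyl hydroxylase that prepares collagen for cross-linking, by -0.64 and -0.59. With arrays centred on the genes past the filter the shNrf3 difference of Plod2 was -0.48, and after loess -0.56. Over the list 6 were higher and 5 lower with shCtrl, and 2 higher and 10 lower with shNrf3, with medians of 0.02 and -0.24. Among all genes past the filter 31.2% were higher and 10.7% lower with shCtrl, and 8.84% and 14.4% with shNrf3.

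In the oxygen-sensing machinery, 13 genes were measured. By construct 5 were higher and 2 lower in NC at 1.5-fold or more, and in HFD 1 was higher and 2 lower. The NC shares among all genes past the filter were 26.8% for higher and 13.5% for lower. The HFD shares were 9.12% and 20.8%. Arnt2, lower in each diet, read below the negative control median on 3 arrays. With readings floored at that median its HFD difference was 0.03, and 1 gene stayed lower in HFD, Epas1 (-0.74). Elob (elongin B), a partner of VHL in the ubiquitin ligase, was low on shCtrl-NC alone (10.43, against 12.22 on shNrf3-NC and 12.33 on shCtrl-HFD, with a construct difference of -0.33 in HFD), an order like that of Pgam1. Cul2, the scaffold of that ligase, was higher with shNrf3 by 0.63 in NC (0.46 after cyclic loess) and 0.88 in HFD. Arnt, the beta subunit, stayed between 9.92 and 10.20, and Egln1, the main HIF prolyl hydroxylase, between 13.20 and 13.71. Vhl stayed between 7.92 and 8.29. Epas1, which encodes HIF-2 alpha, read 5.31 to 6.92, close to the negative controls.

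The design allows 1 test, a limma model in which construct and diet add up. Each gene has 1 residual degree of freedom, its departure from additivity. The variance from it is moderated by limma toward a value estimated over all genes fitted. The SE and p values below rest on that moderated variance, which is not a spread between tumors of a group. A departure from additivity mixes any interaction of construct and diet with variation between tumors and arrays, and the fit cannot separate them. Of the 29 members none passed an adjusted p of 0.05 in limma for either term, as none of the 10021 genes did. At an unadjusted p under 0.05 limma named Car9 for construct (1 of 29, where 4.46% of all genes did) and Lox and Adm for diet (2 of 29, where 2.91% did). The estimate for Car9 in limma was 1.94 ± 0.49 (SE), with an adjusted p of 0.936 (0.00602 before adjustment). For diet it was -1.80 ± 0.38 for Lox and -1.51 ± 0.40 for Adm, each with an adjusted limma p of 0.999 (0.00239 and 0.00733 before adjustment). Across the alternatives the lowest adjusted limma p among members lay between 0.0843 and 0.959 for construct and between 0.114 and 1 for diet. Lox and Adm were under 0.05 unadjusted for diet in each limma fit run, and Car9 for construct in each one that kept it past the filter.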

How the data were processed

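Biotin-labelled RNA made from 100 ng of total tumor RNA was measured on Affymetrix arrays, per the labels' protocols. The authors deposited log2 signals, for which the submitters' processing notes name RMA and Affymetrix Expression Console; for both, the version was not given in the sources used here. Genes were named from the platform annotation (19572 probe sets with 1 symbol, 0 with several, 2634 transcript rows unnamed here). All 19572 Entrez IDs matched RefSeq genes of assembly GRCm38.p6, which also gave Ero1a for Ero1l. Each member has 1 probe set; of other genes the one with the highest mean was used. Differences of log2 values were taken between arrays. limma 3.58.1 in R 4.3.3 (trend and robust off, Benjamini-Hochberg adjustment) fitted construct plus diet over genes with a mean of 5.73 or more, and was tested on simulated data. Alternatives were cyclic loess, centring on transcript rows or on filtered genes (the last chosen after values were seen), a floor at the negative control median, the filters, averaged probe sets, and trend with robust. All 31 listed genes were to be named; of further lists, up to 4 genes each way that passed 1.5-fold with 1 sign in both diets or both constructs, and any oxygen-sensing gene past the filter. Of markers, up to 3 a list with the widest range were to be named; other markers, among them muscle isoforms, Cspg4, Kdr and the epithelial genes, and pathway genes outside that rule, were named after their values were seen. The members and lists were chosen with earlier results of these data known. An array gives no counts, so precision rests on the number of arrays.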

Additional observations from a re-analysis of the deposited data

Results flagged for a closer look

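On the deposited scale 3 members were 1.5-fold or more higher with shNrf3 in 1 diet and lower in the other, against 6.51% of all genes past the filter. With 1 array a group these differences between diets were not tested. The construct difference in HFD minus that in NC was 2.11 for Pfkfb4 (-1.41 in NC and 0.70 in HFD), at levels that did not reach the upper range of the negative controls. It was -1.78 for Bnip3 (0.78 and -1.0). For Aldoa it was -1.46 (0.71 and -0.75). After cyclic loess the NC differences of Bnip3 (0.55) and Aldoa (0.37) fell short of 1.5-fold, and only Pfkfb4 kept both calls.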

How the results depend on the processing

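All 47 member differences of 1.5-fold or more kept their sign under the 5 other scalings and probe set rules, and 32 stayed past 1.5-fold in all 5. However, 2 of the 5 could not change a member. Each member has 1 probe set to average, and all members read above the floor at the negative control median. With cyclic loess, glycolysis genes numbered 5 higher and 2 lower for construct in NC, 2 higher in HFD, and 3 higher and 2 lower for diet with shCtrl (median -0.0472). Other HIF targets then numbered 1 higher for construct in NC and 6 lower for diet with shCtrl (median -0.70). Of all genes past the filter 22.3% were then higher and 17.4% lower for construct in NC, and 12.1% higher in HFD. For diet with shCtrl 21.3% were higher and 16.6% lower. With arrays centred on the genes past the filter, chosen after seeing the data, glycolysis genes numbered 5 higher and 2 lower for construct in NC, 4 higher and 1 lower in HFD, 3 higher and 2 lower for diet with shCtrl (median -0.0133) and 1 lower with shNrf3. Other HIF targets numbered 1 higher for construct in NC, 2 higher and 3 lower in HFD, and 6 lower for diet with shCtrl (median -0.64). On that scale the NC construct shares of all genes past the filter were 19.1% for higher and 21.9% for lower. The HFD construct shares were 16.9% and 12.4%. By diet the shCtrl shares were 17.6% and 20.8%, and the shNrf3 share of lower calls was 10.9%. With arrays centred on transcript rows, 0 of the other HIF targets were lower for construct in NC. The cause was not tested. The other 137 of 160 summary values stayed within 0.3 (medians) or 1.5 times (counts). Of these, 26 came from averaged probe sets, 26 from the floor and 24 from keeping only members past the filter. All members passed that filter, so the values of the member lists could not move in these 3 settings. In limma, centring on the genes past the filter gave 27 genes past an adjusted p of 0.05 for construct and 11 for diet, with 0 members among them, against 0 genes on the deposited scale. Among all genes the share of higher calls at 1.5-fold for diet with shCtrl was 31.2% on the deposited scale, against 21.3% after loess and 17.6% centred on filtered genes. Leaving out an array would leave a group empty. No paired analysis was possible because each group has 1 array and the labels carry no replicate numbers. Signal near the negative controls limits Car9, Pfkfb4, Ankrd37 and Eno2.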
